A study of Mus musculus with 28 samples.

Results

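The comparison described here asks how the transcripts of astrocytes that carry an inducible Cre differed 10 days after tamoxifen, in mice that form amyloid plaques. Its members are the libraries of sorted astrocytes from 4 Cre-positive APPPS1 mice (443, 458, 460 and 475) and 5 Cre-negative APPPS1 mice (439, 447, 469, 774 and 779), which are 9 of the 28 libraries of the series, with the mouse gene counts of each. The Cre-positive mice were APPPS1::APOE4fl/fl::ALDH1L1-CreERT and the Cre-negative mice APPPS1::APOE4fl/fl. Beside them stand astrocytes of amyloid-free mice, APOE4fl/fl::ALDH1L1-CreERT (mice 22 and 26) and APOE4fl/fl (mice 465 and 759), and the microglia of the same mice. All of these mice carried floxed APOE4 and all received tamoxifen at 3.8 months of age, as 2 intraperitoneal doses of 100 mg/kg, so tamoxifen itself was no difference between groups. Astrocytes were sorted with an antibody to ACSA-2 and microglia with an antibody to Cd11b. The series' design text gives 4 mice for each APPPS1 group, while the sample labels, followed here, give 5. The labels name cortex, hippocampus and thalamus as the source of the astrocytes, except for mouse 779, whose label names no region. A further Cre-positive APPPS1 mouse, 459, was left out because its 2 libraries held the genes of the opposite sort.

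APOE is the main lipid-carrying apolipoprotein of the brain. Astrocytes make most of it, load it with cholesterol and phospholipid through ABC transporters, and release lipoprotein particles that neurons and other glia take up through lipoprotein receptors. Astrocytes are also a main site of cholesterol synthesis in the adult brain, and the SREBP2 transcription factor, held back by sterols through Insig and Scap proteins, drives the enzymes of that pathway. In these mice the Cre was driven by the promoter of ALDH1L1, an enzyme of folate metabolism used as an astrocyte marker, and CreERT acts only once it has bound a tamoxifen metabolite. The labels give neither the sex nor the litter of the mice, and the p-values within astrocytes measure the spread between mice. Those of the fit that includes microglia treat both libraries of a mouse as separate, except where a mouse block is named. In sorted bulk cells, fewer recombined cells and less RNA per cell cannot be told apart.

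Total counts in the 28 libraries ran from 26162612 to 63802747. In each of the 13 astrocyte libraries used, astrocyte markers had a mean log2 CPM of 9.97 to 10.6 and microglia markers 0.684 to 2.70. CPM here means a gene's counts scaled to the library's total of mouse gene counts, with no correction for gene length. The library of mouse 459 labelled as astrocytes had 0.870 for astrocyte markers and 11.7 for microglia markers.

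Promoters are shown first for the genes the results turn on, since several of them belong to 1 pathway with a known control element. The sequences are from RefSeq on GRCm38.p6, run from 250 bases before to 50 bases after a transcript start, and are printed 5′ to 3′ on the strand of the gene. Capitals mark matches, on either strand, to the CCAAT box (CCAAT) and to 1 form of the sterol regulatory element (TCACNCCAC), which do not overlap in these windows. Hmgcs1 and Mvd are enzymes of the mevalonate route, Msmo1 acts late in sterol synthesis, and Insig1 is the sterol-dependent brake on SREBP2. Zfp868 is the gene with the lowest p in the comparison, shown at its upstream start.
Hmgcs1, chr13:119690101-119690400, + strand: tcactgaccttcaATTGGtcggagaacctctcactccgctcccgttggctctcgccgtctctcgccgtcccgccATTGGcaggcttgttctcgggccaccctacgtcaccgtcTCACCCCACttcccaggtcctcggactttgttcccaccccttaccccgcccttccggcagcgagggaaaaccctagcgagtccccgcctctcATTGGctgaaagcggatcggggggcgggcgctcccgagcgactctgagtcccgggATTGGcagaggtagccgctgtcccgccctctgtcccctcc
Mvd, chr8:122443373-122443672, - strand: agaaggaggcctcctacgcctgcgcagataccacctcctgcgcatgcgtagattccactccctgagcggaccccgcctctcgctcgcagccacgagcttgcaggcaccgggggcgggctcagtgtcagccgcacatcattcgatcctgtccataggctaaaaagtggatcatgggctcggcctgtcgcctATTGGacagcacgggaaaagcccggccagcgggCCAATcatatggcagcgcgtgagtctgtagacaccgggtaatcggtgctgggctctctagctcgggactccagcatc
Msmo1, chr8:64733529-64733828, - strand: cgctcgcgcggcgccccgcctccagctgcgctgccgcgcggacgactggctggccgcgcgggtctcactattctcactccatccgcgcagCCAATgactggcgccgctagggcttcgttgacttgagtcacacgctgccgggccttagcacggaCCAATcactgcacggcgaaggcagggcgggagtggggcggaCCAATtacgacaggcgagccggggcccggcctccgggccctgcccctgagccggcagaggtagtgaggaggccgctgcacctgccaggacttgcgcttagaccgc
Insig1, chr5:28071162-28071461, + strand: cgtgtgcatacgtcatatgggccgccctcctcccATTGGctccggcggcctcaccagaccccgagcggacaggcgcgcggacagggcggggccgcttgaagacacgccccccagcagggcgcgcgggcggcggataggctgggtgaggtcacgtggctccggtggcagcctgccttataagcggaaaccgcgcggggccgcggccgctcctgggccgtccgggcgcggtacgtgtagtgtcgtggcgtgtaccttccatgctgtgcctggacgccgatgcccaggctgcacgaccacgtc
Zfp868, chr8:69625499-69625798, - strand: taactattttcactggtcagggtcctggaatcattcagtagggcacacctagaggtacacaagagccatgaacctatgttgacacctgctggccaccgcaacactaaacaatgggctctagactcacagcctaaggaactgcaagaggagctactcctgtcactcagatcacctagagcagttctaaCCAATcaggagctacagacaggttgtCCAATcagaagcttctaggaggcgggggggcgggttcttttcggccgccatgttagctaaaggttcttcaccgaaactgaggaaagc
The sterol element was present in the Hmgcs1 window, in capitals as TCACCCCAC, and in none of the other 4 shown. Of the 27 cholesterol synthesis genes described below, 20 had an entry, and 1 of these 20 held it, against 1.24% of the 32851 promoters of the table and 1.44% of its 27025 genes. The CCAAT box was found in 18 of the 20 genes, or 90%, against 41.1% of all genes and 37.4% of all promoters. A match of letters is a description of the window and not of binding.

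Human APOE, the targeted gene, had 827 CPM in mouse 443, 553 in mouse 458, 594 in mouse 460 and 507 in mouse 475 of the Cre-positive group. The Cre-negative mice had 1864 CPM in mouse 439, 1394 in mouse 447, 1601 in mouse 469, 1273 in mouse 774 and 1473 in mouse 779. Every Cre-positive library lay below every Cre-negative one. The means were 620.5 ± 142 CPM (SD, n = 4) and 1521 ± 226 CPM (SD, n = 5), a ratio of 0.408, with a two-sided exact permutation p of 0.00794, the smallest that the 126 regroupings allow, and 0.0317 after Benjamini-Hochberg adjustment over the 4 target genes tested. Human APOE fell, and a level of 507 to 827 CPM remained. Which exons are floxed, and therefore whether counted reads could come from a recombined allele, is not stated in the labels. In the amyloid-free astrocytes the Cre-positive values were 521 and 926 CPM and the Cre-negative values 1411 and 1052 CPM, again without overlap. The microglia of the APPPS1 mice, which the Cre driver does not target, had 781 ± 332 CPM (SD, n = 4) with Cre and 433 ± 292 CPM (SD, n = 5) without it.

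The endogenous Apoe locus is replaced by the human gene in these mice. Reads were still counted on mouse Apoe, at 323, 333, 464 and 337 CPM in Cre-positive mice 443, 458, 460 and 475, and 453, 383, 443, 376 and 411 CPM in Cre-negative mice 439, 447, 469, 774 and 779. Of the Cre-positive libraries 3 lay below the whole Cre-negative group and mouse 460 lay above it. The means of 364 ± 66.6 and 413 ± 34.5 CPM did not differ at the threshold (two-sided exact permutation p = 0.206, adjusted over 4 tests 0.275). Without mouse 460 the exact permutation p was 0.0357, unadjusted, and without each of the other mice in turn it was 0.2 to 0.393. Mouse 460 was singled out by its level of this same gene, so the 0.0357 is no separate support. How the counting assigned reads shared by the human and mouse genes is not given, so human APOE and mouse Apoe values are uncertain in their split.

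Aldh1l1, whose promoter drives the Cre, had 382 CPM in mouse 443, 386 in mouse 458, 373 in mouse 460 and 407 in mouse 475 of the Cre-positive group. The Cre-negative mice had 547 CPM in mouse 439, 491 in mouse 447, 424 in mouse 469, 469.6 in mouse 774 and 449 in mouse 779. The groups did not overlap, with means of 387 ± 14.6 (SD, n = 4) and 476 ± 46.7 CPM (SD, n = 5), a ratio of 0.812 (two-sided exact permutation p = 0.0159, adjusted over 4 tests 0.0317). Aldh1l1 fell by this test, while across all genes the edgeR quasi-likelihood test gave it a Benjamini-Hochberg adjusted p of 0.7. In amyloid-free astrocytes the order was the opposite, 522 and 586 CPM in Cre-positive against 391 and 303 CPM in Cre-negative mice, a ratio of 1.60. The difference between these effects was -1.03 on the log2 scale (edgeR adjusted p = 0.0513). This order was not particular to Aldh1l1. The list of 16 astrocyte identity genes that holds it had a median log2 change of 0.36 in amyloid-free astrocytes, with 2 of 16 below 0. The median of all genes there was -0.015. Summed, the list had 52340 to 52867 CPM with Cre and 34754.5 to 46704 CPM without in those mice. Human APP, a part of the APPPS1 transgene, was counted at 0.318 ± 0.0797 CPM with Cre and 1.02 ± 1.16 CPM without it (exact permutation p = 0.357, adjusted p = 0.357).

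**Figure D1:**
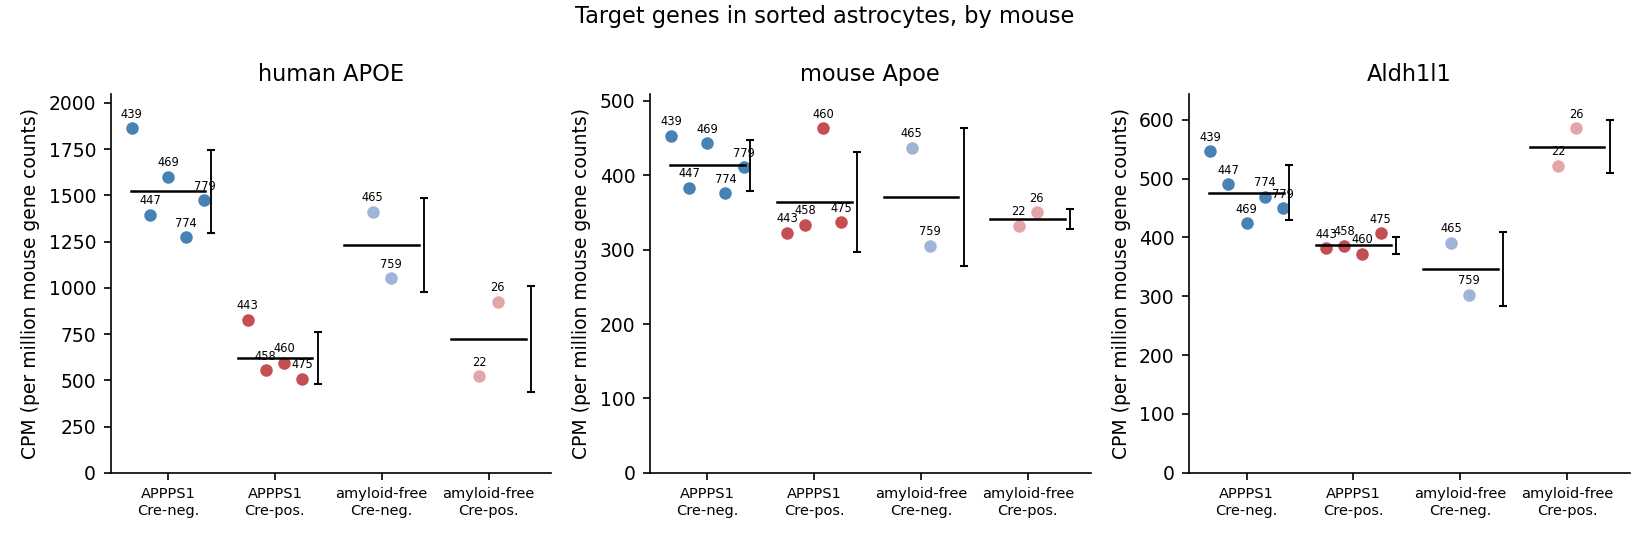
CPM of human APOE, mouse Apoe and Aldh1l1 on the vertical axis for each mouse, by group of sorted astrocytes. Points are single mice, horizontal lines the group means and error bars the SD: human APOE and Aldh1l1 do not overlap between the APPPS1 groups, and Aldh1l1 has the opposite order in the amyloid-free groups.

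Across the mouse genes, 2 of 20052 tested differed between Cre-positive and Cre-negative APPPS1 astrocytes at an adjusted p under 0.05, which is 0.00997% (edgeR quasi-likelihood test with Benjamini-Hochberg adjustment). Both were higher with Cre. At an unadjusted p under 0.05 there were 672 genes higher (3.35%) and 671 lower (3.35%). The Cre-positive libraries lay wholly above the Cre-negative ones for 265 genes (1.32%) and wholly below for 119 (0.593%). The log2 change, which is taken after TMM scaling, was below 0 for 50.1% of genes and its median was -0.00053.

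Zfp868, a gene for a zinc finger protein (ENSMUSG00000060427, GRCm38 chr8:69610857-69625548, - strand), rose. It had 95.9 CPM in mouse 443, 147 in mouse 458, 106 in mouse 460 and 128 in mouse 475 with Cre. Without Cre it had 38.1 CPM in mouse 439, 32.0 in mouse 447, 19.5 in mouse 469, 20.7 in mouse 774 and 26.7 in mouse 779. The lowest Cre-positive library was above the highest Cre-negative one, with means of 119 ± 22.9 (SD, n = 4) and 27.4 ± 7.81 CPM (SD, n = 5), and the log2 change was 2.06 ± 0.19 (standard error, edgeR adjusted p = 0.00126). Amyloid-free astrocytes had 167 and 133 CPM with Cre and 25.2 and 26.3 CPM without, also without overlap (log2 change 2.54, edgeR adjusted p = 0.0101). That call rested on 2 mice against 2 and ended without mouse 22 (2.37, edgeR adjusted p = 0.139), mouse 26 (2.68, 0.0774) or mouse 759 (2.59, 0.113), and with the ependymal marker level as a covariate (1.92, 0.253). It also ended with mouse 459 kept, where no gene passed by edgeR and 744 had an unadjusted p under 0.05. APPPS1 microglia had 72.0 to 113 CPM with Cre and 16.2 to 22.0 CPM without, a log2 change of 2.26 (edgeR adjusted p = 1.39e-06, in a comparison where 5 of 21612 genes, 0.0231%, passed). The astrocyte change minus the microglial change was -0.19 (edgeR adjusted p = 0.994). Zinc finger genes of this family resemble each other, and how reads shared by such copies were counted is not given.

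Apoc1, a small apolipoprotein carried on lipoprotein particles (ENSMUSG00000040564, GRCm38 chr7:19689481-19692660, - strand), also rose. It had 72.5 CPM in mouse 443, 62.7 in mouse 458, 85.8 in mouse 460 and 67.0 in mouse 475 with Cre. Cre-negative mice had 22.9 CPM in mouse 439, 14.8 in mouse 447, 15.5 in mouse 469, 10.9 in mouse 774 and 19.4 in mouse 779. The groups were far apart, at 72.0 ± 10.0 (SD, n = 4) against 16.7 ± 4.60 CPM (SD, n = 5), and the log2 change was 2.06 ± 0.22 (edgeR adjusted p = 0.00279). In amyloid-free astrocytes the values were 44.1 and 25.2 CPM with Cre and 11.9 and 12.1 CPM without, a log2 change of 1.53 that did not pass (edgeR adjusted p = 0.0719). Apoc1 had lower levels in APPPS1 microglia, at 7.07 ± 2.98 CPM with Cre and 2.69 ± 1.31 CPM without (log2 change 1.35, edgeR adjusted p = 0.556). Those microglia groups did not overlap either, at 4.65 to 11.1 CPM with Cre and 0.727 to 4.35 CPM without. The change in astrocytes exceeded that in microglia by 0.73, a difference that did not pass (edgeR adjusted p = 0.884).

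Apoc1 lies next to mouse Apoe in the GRCm38 reference, where the positions below are taken. Its annotated end at chr7:19692660 is 3.4 kb from the interval of Apoe, chr7:19696109-19699188, on the same strand, downstream of it. Of the 13 genes listed as neighbours of Apoe 12 were tested, and Apoc1 was the only one with an unadjusted p under 0.05, while the median log2 change of the 12 was 0.16. Within 1 Mb of Apoc1, a window chosen after the values were seen, 50 other genes were tested. Of these 3 were higher at an unadjusted p under 0.05 (Clasrp, Gm26890 and Dmwd) and none was lower, where all genes had 3.35% each way. None of these other genes passed the adjusted threshold by edgeR, and their median change was 0.11. Tomm40 had a log2 change of 0.26, Clptm1 0.15 and Nectin2 0.18, and Apoc2 was counted at 0.0519 against 0.205 CPM.

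The same window around Zfp868 held 52 other tested genes, with a median change of 0.10. Of these 6 were higher and 3 lower at an unadjusted p under 0.05 (all genes 3.35% each way). The one nearest to passing was Mau2, a cohesin loader subunit at chr8:70016123-70042734. It had 88.1, 138, 123 and 139 CPM in Cre-positive mice 443, 458, 460 and 475 and 74.2, 53.4, 56.5, 58.9 and 70.4 CPM in Cre-negative mice 439, 447, 469, 774 and 779. The groups did not overlap, at 122 ± 23.7 against 62.7 ± 9.07 CPM (log2 change 0.90 ± 0.14, edgeR adjusted p = 0.0546). Without mouse 443, the lowest Cre-positive library, it passed (edgeR adjusted p = 0.0177). With each APPPS1 mouse left out in turn the edgeR adjusted p reached up to 0.364. Amyloid-free astrocytes had 132 and 121 CPM with Cre and 58.4 and 68.5 CPM without (log2 change 0.99, edgeR adjusted p = 0.0649). APPPS1 microglia had 68.3 ± 8.89 with Cre and 48.7 ± 7.98 CPM without. The other 5 higher genes of this window were Zfp963, Sugp1, Slc25a42, Slc18a1 and Tm6sf2, and the 3 lower ones Atp13a1, Ncan and Lrrc25.

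**Figure D2:**
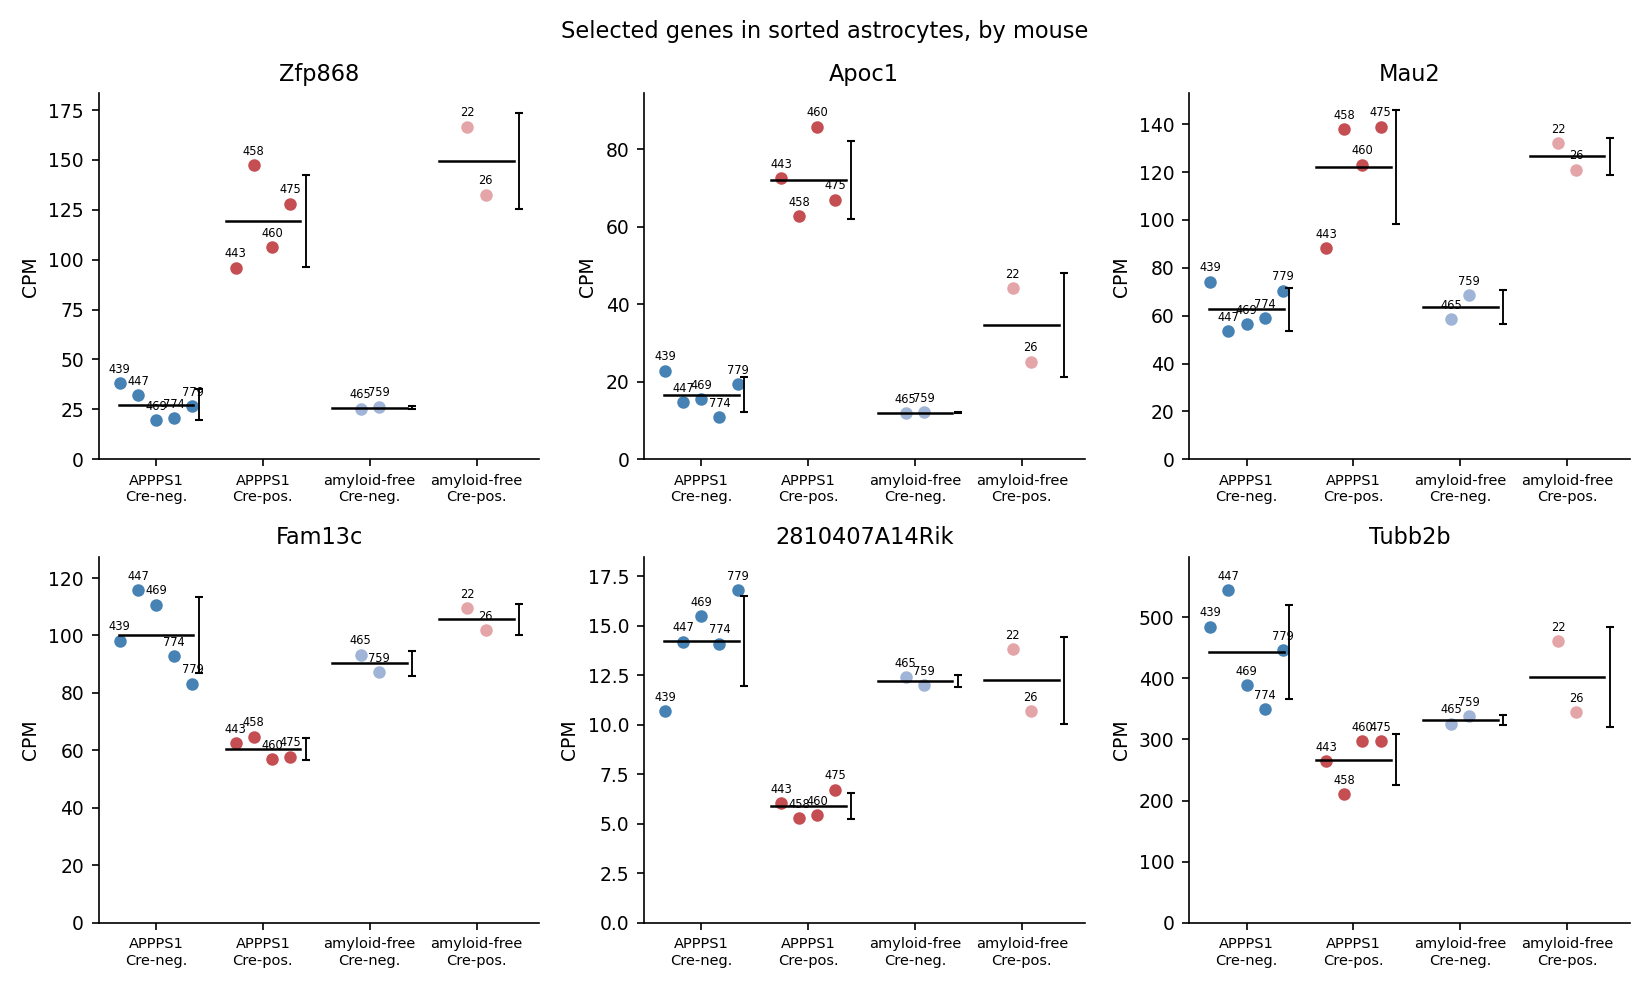
CPM on the vertical axis for each mouse, by astrocyte group, for Zfp868, Apoc1, Mau2, Fam13c, 2810407A14Rik and Tubb2b, with horizontal lines at group means and error bars for the SD. Zfp868, Apoc1 and Mau2 are high in the Cre-positive APPPS1 mice, and in the other 3 genes the Cre-positive APPPS1 mice lie below the Cre-negative ones.

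Below the threshold, Fam13c had the lowest p of the protein-coding genes that were lower with Cre. It had 62.5 CPM in mouse 443, 64.8 in mouse 458, 56.8 in mouse 460 and 57.8 in mouse 475 with Cre. Its Cre-negative values were 98.2, 116, 111, 92.7 and 83.2 CPM. The groups did not overlap (log2 change -0.78 ± 0.12, edgeR adjusted p = 0.0546), and in amyloid-free astrocytes the change was 0.23, with a difference between the effects of -1.01 (edgeR adjusted p = 0.0689). The long noncoding RNA 2810407A14Rik, named here after its values were seen, had 5.88 ± 0.655 CPM with Cre and 14.2 ± 2.28 CPM without, again with no overlap (log2 change -1.32 ± 0.19, edgeR adjusted p = 0.0540). It passed without mouse 439, the lowest Cre-negative APPPS1 library (edgeR adjusted p = 0.0209). With each APPPS1 mouse left out in turn the edgeR adjusted p reached up to 0.274.

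The genes of next lowest p with at least a mean log2 CPM of 3, up to 12 in each direction, had edgeR adjusted p-values of 0.567 to 0.699, so none passed by edgeR. Several of them passed with DESeq2, as given below with the other alternatives. On the higher side, Ddx46, a splicing helicase, had 62.1 against 38.0 CPM, Ppp2r2a, a PP2A subunit, 88.2 against 58.8 CPM, and Tyk2, a Janus kinase, 18.6 against 10.2 CPM, with Cre against without. The small GTPase Rhou had 74.0 against 45.2 CPM, the Hippo kinase Lats2 37.2 against 24.9 CPM, and the phosphorylase kinase subunit Phka2 17.5 against 10.0 CPM. Tmem259, Tchp, Pnmal2, Tekt4 and Scaf11 completed that side, with log2 changes from 0.46 to 1.04. On the lower side, the beta-tubulin Tubb2b had 264, 210.1, 297 and 297 CPM in Cre-positive mice 443, 458, 460 and 475 and 485, 544, 389, 349 and 446 CPM in Cre-negative mice 439, 447, 469, 774 and 779, without overlap (log2 change -0.78 ± 0.16). Akt2, a kinase of insulin signalling, had 152 against 261 CPM, Aacs, which makes acetoacetyl-CoA for lipid synthesis, 41.1 against 69.2 CPM, and the mitochondrial aminotransferase Got2 48.2 against 70.6 CPM. The epoxide hydrolase Ephx2 had 185 against 270.5 CPM, the retinoid isomerase Rpe65 22.2 against 42.8 CPM, the matrix proteoglycan Prelp 133 against 212 CPM and the calcium-binding Kcnip3 121 against 165 CPM. Hmgcs1, Btd and Yif1a were the others.

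The genes of cholesterol synthesis and SREBP2 control were lower as a group in Cre-positive APPPS1 astrocytes by count, although none of them passed the threshold by edgeR. All 27 members had a log2 change below 0, against 50.1% of all genes, and their median was -0.47 beside -0.00053 for all genes. Of the 27, 15 were lower at an unadjusted p under 0.05, which is 55.6% against 3.35% of all genes, and 0 were higher. The lowest edgeR adjusted p among them was 0.588, and 10 to 20 were lower at an unadjusted p under 0.05 when each mouse was left out. All 27 were measured in the same 9 libraries, so the counts are not independent of each other.

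Summed over the 27 genes, the Cre-positive libraries had 3574 CPM in mouse 443, 3031 in mouse 458, 3142 in mouse 460 and 3277 in mouse 475. The Cre-negative libraries had 2892 CPM in mouse 439, 5006 in mouse 447, 6224 in mouse 469, 5786 in mouse 774 and 4681 in mouse 779. Of the 5 Cre-negative mice 4 lay above every Cre-positive mouse, and mouse 439 lay below them all. Without mouse 439, an alternative added after the data were seen, 17 of the 27 genes had groups that did not overlap (63%, against 1.15% of all genes), where 1 did with it. The median change was then -0.63, 26 genes were below 0, 20 were lower at an unadjusted p under 0.05, and Hmgcs1 passed (edgeR adjusted p = 0.0209). Mouse 439 was singled out by its low level of these same genes, so these values follow partly from that choice. They are no separate support, and the 1.15% of all genes is not a matched background for them. In the library of mouse 439 the endothelial markers were also the highest of the 9, and the part of this in its cholesterol gene levels was not tested.

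**Figure D3:**
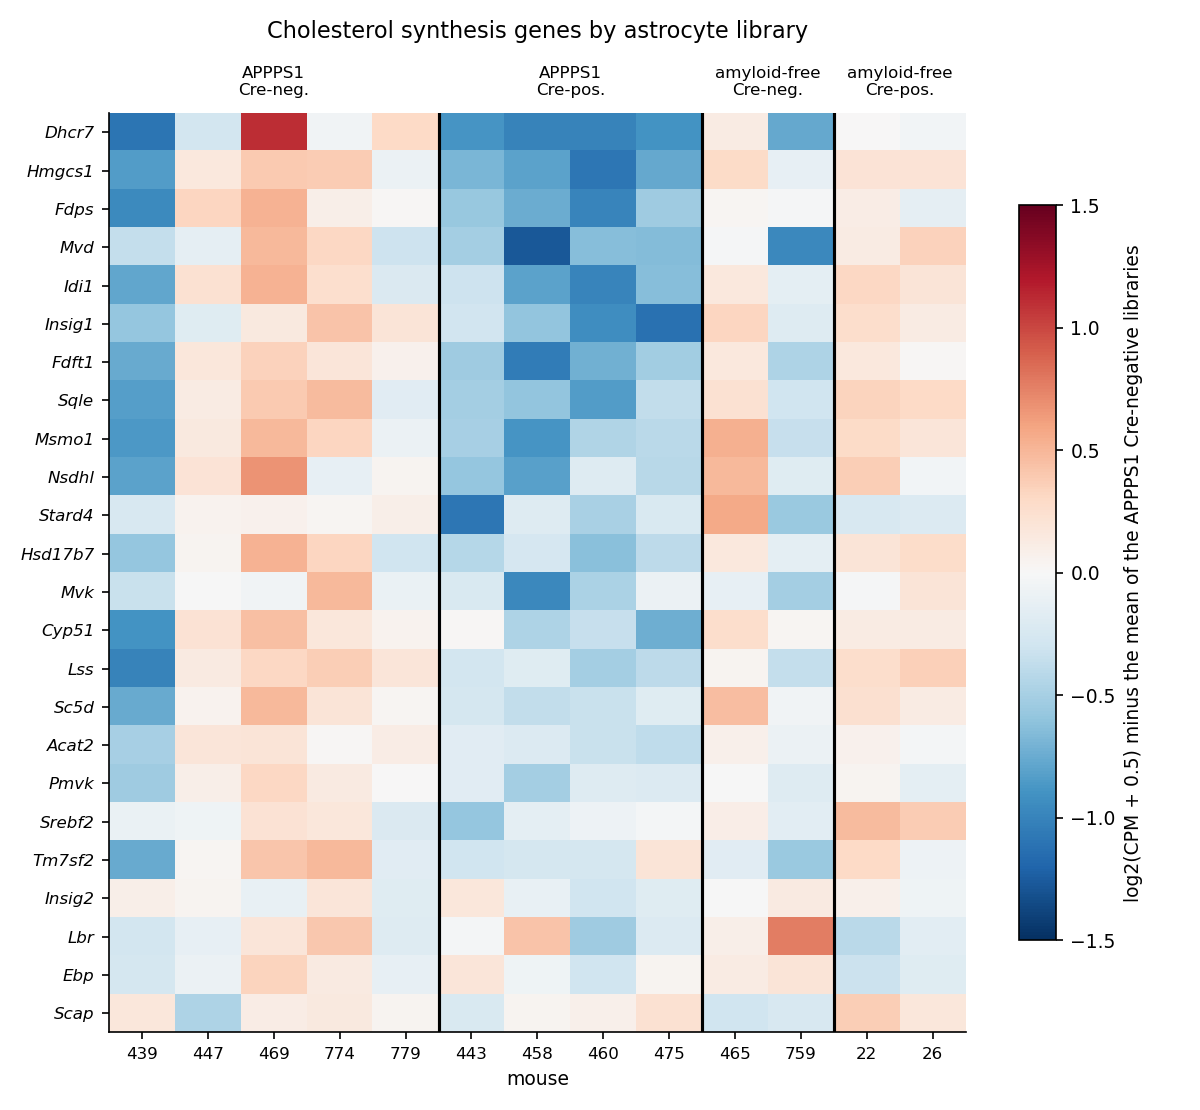
Level of 24 of the 27 cholesterol synthesis and SREBP2 control genes in each astrocyte library, as log2(CPM + 0.5) minus that gene's mean in the Cre-negative APPPS1 libraries, with libraries in columns by group and genes in rows. The 4 Cre-positive APPPS1 libraries and Cre-negative mouse 439 are low across most rows, and most of the other Cre-negative APPPS1 libraries are near or above 0.

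At the head of the pathway, Hmgcs1, the synthase that makes HMG-CoA, had 246 CPM in mouse 443, 227 in mouse 458, 187 in mouse 460 and 233 in mouse 475 with Cre. Without Cre it had 221 CPM in mouse 439, 444 in mouse 447, 519.9 in mouse 469, 519 in mouse 774 and 373 in mouse 779. All but mouse 439 of the Cre-negative mice were above the highest Cre-positive mouse, and the log2 change was -0.94 ± 0.21 (unadjusted p = 0.000616, edgeR adjusted p = 0.588). Mvd, the mevalonate decarboxylase, was the member whose groups did not overlap, at 52.0, 30.4, 47.8 and 47.2 against 57.8, 67.9, 105, 92.7 and 59.8 CPM in the same orders of mice (-0.82 ± 0.24). The isoprenoid steps followed the same order. Idi1, the isomerase, had 33.1 against 55.2 CPM, Fdps, the farnesyl diphosphate synthase, 78.7 against 135 CPM, and Mvk, the mevalonate kinase, 35.2 against 47.6 CPM.

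From squalene on, Fdft1, the squalene synthase, had 245 ± 39.6 with Cre and 407 ± 102 CPM without (-0.78 ± 0.21). Sqle, the squalene epoxidase, had 156 against 243 CPM (-0.69 ± 0.22), and Lss, the cyclase that forms lanosterol, 31.6 against 42.1 CPM (-0.47 ± 0.22). Msmo1, the sterol C4 oxidase, was at 763, 581, 789 and 816 against 590.0, 1193, 1508, 1342 and 1015 CPM (-0.66 ± 0.25). In the later steps Dhcr7, the last reductase of its branch, had 53.1, 48.8, 48.6 and 52.6 CPM with Cre, within a narrow range, and 45.8, 81.2, 213, 94.5 and 121 CPM without (-1.18 ± 0.34). Nsdhl and Hsd17b7 had changes of -0.61 and -0.53, Cyp51 -0.47, and Sc5d -0.39. Ebp (-0.09) and Lbr (-0.12) were near 0, and turned above 0 when single mice were left out.

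Among the regulators, Insig1, itself an SREBP2 target, had 592 CPM in mouse 443, 478 in mouse 458, 379 in mouse 460 and 331 in mouse 475 with Cre and 481, 637, 802, 969 and 824 CPM without (-0.78 ± 0.21). The Cre-negative mice other than 439 were all above the highest Cre-positive mouse. Stard4, a sterol carrier, had 7.38 against 10.3 CPM. Srebf2, the transcription factor gene, had 80.5 against 92.8 CPM (-0.26 ± 0.13), while Insig2 (-0.14) and the escort Scap (-0.03) were near 0, and Scap changed sign when single mice were left out.

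In amyloid-free astrocytes the same 27 genes had a median log2 change of 0.21, with 8 of the 27 below 0. Their summed levels were 5542 CPM in mouse 22 and 5217 in mouse 26 with Cre, and 5850 CPM in mouse 465 and 4009 in mouse 759 without, so the Cre-positive mice lay between the Cre-negative ones. The change in APPPS1 mice minus that in amyloid-free mice had a median of -0.74 over the list, and for Hmgcs1 it was -1.05 (edgeR adjusted p = 0.298). No member of the list passed this test of the difference, in which 31 of 20052 genes (0.155%) passed. In the microglia of the APPPS1 mice the list's median was -0.16, with 23 of 27 below 0, beside an all-gene median of -0.0013. In the amyloid-free comparison the all-gene median was -0.015, and other lists moved both ways. Astrocyte identity had a median of 0.36 there, transmitter uptake 0.28 and glial transcription factors 0.20. Type I interferon genes had -0.57, immediate early genes -1.21 and endothelial markers -2.55. The part of cell composition in the amyloid-free cholesterol values was not tested.

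Sterol export and lipoprotein genes were near 0 as a group, with 19 of 36 below 0 and a median of -0.02, or -0.03 with Apoc1 left out. At an unadjusted p under 0.05 stood Apoc1 and Srebf1 on the higher side and Lrp4 on the lower. These are 2 and 1 of 36, where all genes had 3.35% each way. Srebf1, the SREBP of fatty acid synthesis, had 351, 398, 405 and 402 CPM with Cre and 337, 260.4, 282, 284 and 329 CPM without (0.33 ± 0.11, edgeR adjusted p = 0.7), with no overlap. Abca1, the cholesterol exporter that loads APOE, had 183 ± 46.9 with Cre and 146 ± 31.7 CPM without, and its groups overlapped. Clu, a further apolipoprotein of astrocytes, had 8027 ± 1425 and 8601 ± 706 CPM (-0.14 ± 0.14). The receptor Lrp1 had a change of -0.01 and Lrp4 of -0.40.

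Fatty acid genes had a median of -0.17, with 26 of 34 below 0, 11 lower and 2 higher at an unadjusted p under 0.05 (all genes 3.35% each way), and none passing by edgeR. The 11 became 5 without mouse 447 or 458, 6 without mouse 475 and 7 without mouse 460. Elovl5, an elongase of polyunsaturated fatty acids, had 717, 657, 748 and 665 CPM with Cre and 782, 948, 913, 878 and 900.0 CPM without, and did not overlap (-0.39 ± 0.10). Lower too were Scd1, the desaturase (150.2 against 199 CPM), Acly, which supplies cytosolic acetyl-CoA (98.8 against 122 CPM), and the acyl-CoA synthetases Acsl6 (779 against 950.0 CPM) and Acsbg1 (1719 against 2041 CPM), at unadjusted p under 0.05. The mitochondrial oxidation genes Cpt2, Hadha and Hadhb had changes of -0.28, -0.26 and -0.25. The 2 on the higher side were Acacb, the acetyl-CoA carboxylase that restrains mitochondrial uptake (17.8 against 10.5 CPM), and Ppara, a nuclear receptor of fatty acid oxidation (17.2 against 11.2 CPM). Fasn, Scd2 and Fads1 were within -0.13 to -0.11.

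Glucocorticoid response genes were on the higher side, with 17 of 20 above 0, a median of 0.40 and 7 higher at an unadjusted p under 0.05 (35%, against 3.35% of all genes), and again none passing by edgeR. Plin4, a lipid droplet coat protein, had 5.84 CPM in mouse 443, 20.9 in mouse 458, 3.23 in mouse 460 and 19.1 in mouse 475 with Cre and 3.29, 0.998, 2.23, 1.28 and 1.91 CPM without (2.59 ± 0.53, edgeR adjusted p = 0.567). Fkbp5, the co-chaperone of the receptor, had 1.08, 5.46, 3.09 and 16.8 CPM with Cre and 0.104, 0, 0.580, 0.724 and 0.602 CPM without, and mice 458 and 475 carried most of the excess in both genes. Hif3a had 19.5, 62.1, 45.3 and 130.1 CPM with Cre and 32.7, 20.0, 16.1, 24.1 and 28.6 CPM without, with mouse 475 the highest and mouse 443 within the Cre-negative range. Zbtb16, a transcription factor, was at 45.7 CPM in mouse 475 and at 6.99 to 9.72 CPM in the other Cre-positive mice. Sgk1, a kinase induced by the receptor, had 179 against 81.8 CPM, and its change exceeded that in amyloid-free astrocytes by 5.35 (edgeR adjusted p = 0.04995, at the edge of the threshold). The amyloid-free mice had 18.2 and 40.1 CPM of it with Cre and 507 and 627 CPM without, further apart than the APPPS1 groups. The call ended without any 1 of the 4 amyloid-free mice (edgeR adjusted p = 0.0731 to 0.288). Without mouse 475 the list's median was 0.19, and 4 genes were higher at an unadjusted p under 0.05 without mouse 443, 469, 475 or 779. In amyloid-free astrocytes it was -0.44.

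Astrocyte identity genes had a median of -0.09, with 13 of 16 below 0 (all genes 50.1%). Of the 16, 2 were lower at an unadjusted p under 0.05 (all genes 3.35%), Aldh1l1 and Slc1a3. The glutamate transporter Slc1a3 had 7120.2, 6641, 6284 and 6868 CPM with Cre and 7734, 9901, 7679.6, 7632 and 8137 CPM without, and the groups did not overlap (-0.34 ± 0.12, edgeR adjusted p = 0.7). The GABA transporter Slc6a11 was on the higher side at 969 against 643 CPM. Among the genes of transmitter uptake and potassium buffering the median was -0.07 over 23, and Grm3, a metabotropic glutamate receptor of astrocytes, had 564 against 789 CPM (-0.53 ± 0.14). Of the 24 synapse-forming and pruning factors 4 were lower at an unadjusted p under 0.05 (all genes 3.35%), and 7 without mouse 443. Chrdl1, which matures synapses, had 109 against 165 CPM, and the phagocytic bridge protein Mfge8 4277 against 5434 CPM, with no overlap for Mfge8. Among 22 glial transcription factors the median was -0.00075, and Rorb, a nuclear receptor, had 499 against 666 CPM (-0.47 ± 0.15).

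The lists of reactive astrocyte genes had medians on both sides of 0. The pan-reactive list had a median of -0.35 with 9 of 13 below 0, the A1-type list 0.22, the A2-type list -0.10 and the disease-associated list -0.06, and none of their members passed by edgeR. These medians rested on single mice: the pan-reactive one was -0.06 without mouse 439, -0.11 without mouse 460 and -0.14 without mouse 774. The A1-type one was 0.04 without mouse 443 and 0.36 without mouse 460, and the A2-type one 0.31 without mouse 774 and -0.22 without mouse 460. The disease-associated one was 0.05 without mouse 458 and 0.04 without mouse 460. Gfap, the filament protein that marks reactive astrocytes, had 249.7, 132, 166 and 203 CPM with Cre and 235, 194, 129.9, 201 and 222 CPM without, with overlapping groups (-0.10 ± 0.20). Vim, another filament gene, had 107, 174, 108 and 111 CPM with Cre and 87.0, 92.0, 89.2, 92.5 and 87.0 CPM without, with every Cre-positive mouse higher (0.42 ± 0.14, edgeR adjusted p = 0.7). The Vim change exceeded that in amyloid-free astrocytes by 1.56 (edgeR adjusted p = 0.0364), where it was -1.14. This call ended without any 1 of the 4 amyloid-free mice (edgeR adjusted p = 0.0655 to 0.263) and with the ependymal covariate (0.689). Markers of other cell types differed between those same amyloid-free groups, and their part in it was not tested. Serpina3n had 26.1 against 29.3 CPM and C4b 101 against 85.8 CPM, and both overlapped. Steap4 was at 0.467 against 3.34 CPM and Fbln5, an elastic fibre protein, at 72.7 against 33.8 CPM.

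None of the members of the remaining lists passed by edgeR, and their counts at an unadjusted p under 0.05 stand beside 3.35% of all genes in each direction. Type I interferon genes (25, median 0.06) and lysosomal genes (25, -0.09) had none in either direction. Amyloid precursor processing had a median of -0.07, complement -0.18, oxidative phosphorylation -0.10 and oxidative stress -0.07. The complement median was 0.03 without mouse 439 and 0.02 without mouse 774. Glycolysis had a median of -0.19 with 4 of 27 lower, 1 without mouse 458, 2 without mouse 447, 460 or 475 and 7 without mouse 774. Among the 4 were the hexokinase Hk1 (89.4 against 119.5 CPM) and the pyruvate kinase Pkm (887 against 1049 CPM). The chaperones Calr (279.9 against 365 CPM) and Pdia6 (271 against 338 CPM) were lower without overlap in a list of unfolded protein genes with a median of -0.13. They were the 2 lower members, and 8 were lower without mouse 443, 6 without mouse 469 and 4 without mouse 774. Extracellular matrix genes had -0.14, with Hapln1 at 82.6 against 119 CPM, and Notch, hedgehog, BMP and FGF genes 0.04, with Spry2 at 789 against 1068 CPM. Cell cycle genes had a median of 0.44 and 19 of 25 above 0, at low levels, and 1, Cenpf (3.53 against 1.03 CPM), was higher at an unadjusted p under 0.05. Without mouse 774 the median was 0.61 with 5 higher, without mouse 475 it was 0.28 with 0 higher, and without mouse 779 also 0.28. Immediate early genes, which respond to dissociation, had 0.03. Cytokine and chemokine genes had -0.45 with 5 lower genes of 22. Without mouse 774 there were 3 of 21 with a median of -0.32, and without mouse 443 there were 7 of 22 with a median of -0.86. In Cre-negative mouse 774 Il1b had 157 CPM, where no other APPPS1 astrocyte library exceeded 0.789 CPM.

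**Figure D4:**
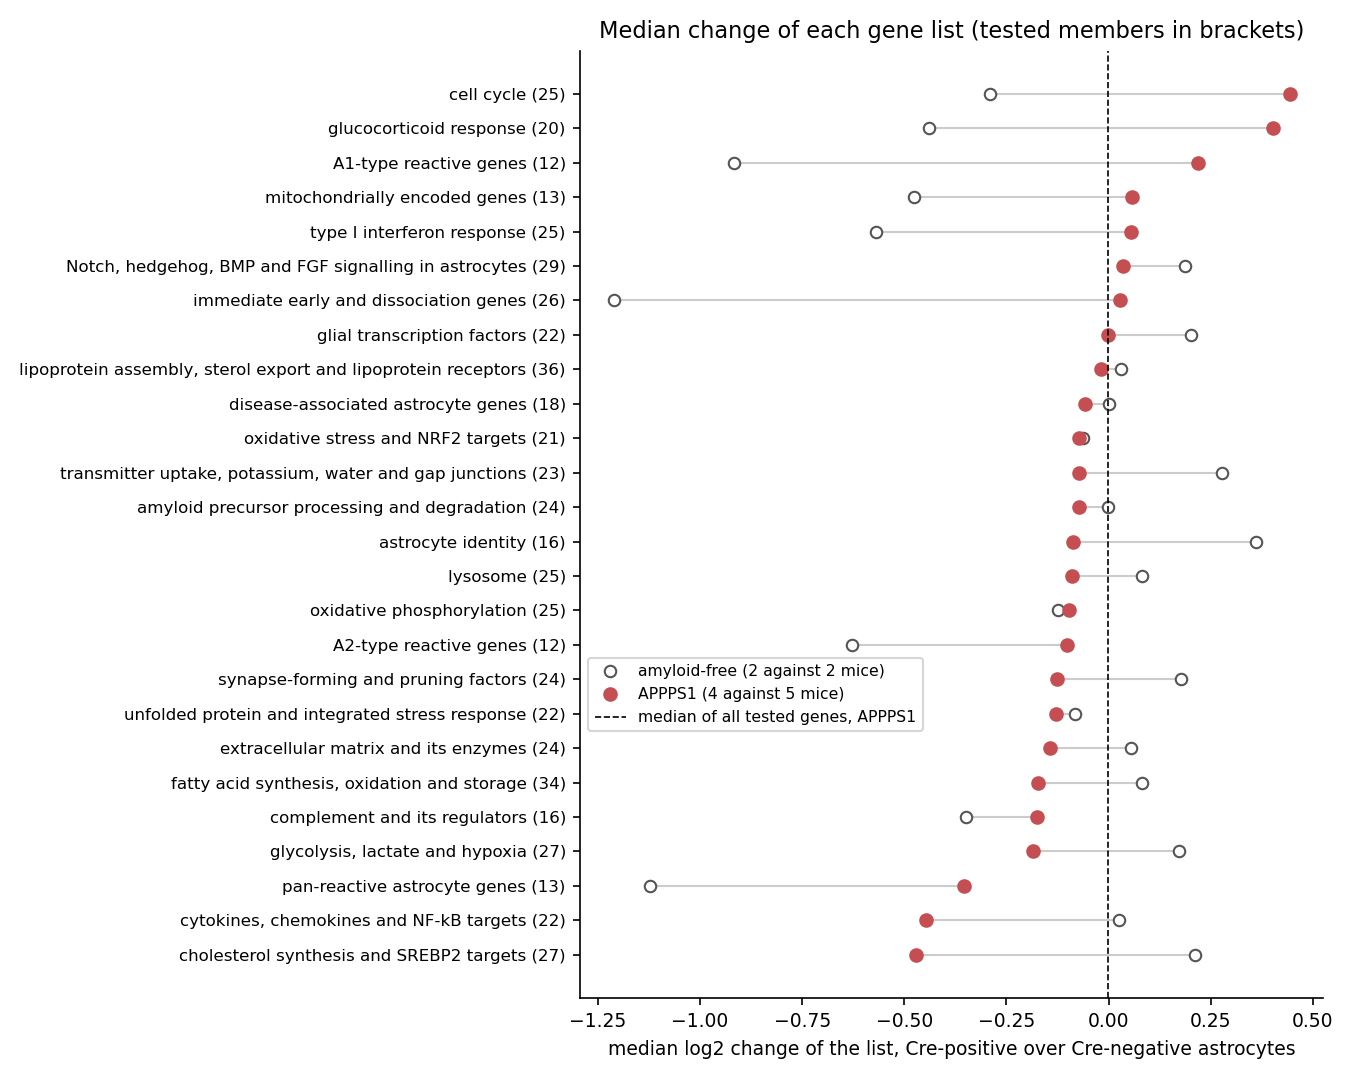
Median log2 change of each gene list between Cre-positive and Cre-negative APPPS1 astrocytes, as filled points, with the medians in amyloid-free astrocytes as open points and the median of all tested genes as a dashed line, on a horizontal log2 axis. The cholesterol list is at -0.47 in APPPS1 astrocytes and 0.21 in amyloid-free astrocytes, and the glucocorticoid list at 0.40 and -0.44.

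Markers of other cell types were present in the sorted astrocytes, and their levels are given as summed CPM. Oligodendrocyte markers had 2934 to 15074 with Cre and 3726 to 16041 without, and endothelial markers 157 to 822 and 313 to 934. Pericyte, smooth muscle and fibroblast markers had 428 to 1591 with Cre and 795 to 2019 without, and neuronal markers 93.7 to 160 and 81.8 to 123. Microglial markers were at 68.9 to 96.5 with Cre and 71.7 to 169 without, with 13 of 15 members below 0, a median of -0.55 and 3 lower at an unadjusted p under 0.05 (all genes 3.35%). Without mouse 774 that median was -0.11, without mouse 779 -0.35, without mouse 443 -0.36 and without mouse 458 -0.31. The pericyte list had 12 of 14 below 0 and a median of -0.33, which was -0.08 without mouse 439, -0.10 without mouse 460 and -0.85 without mouse 443. All of these ranges overlapped. Ependymal and choroid plexus markers had 365 to 836 with Cre and 165 to 461 without, and 9 of their 10 members were above 0 with a median of 0.59 (0.27 without mouse 458 and 0.39 without mouse 439), among them Foxj1, the regulator of motile cilia (19.8 against 9.80 CPM). Markers of monocytes, neutrophils and lymphocytes were at 2.45 to 4.49 with Cre and 1.26 to 6.99 without, except for 322 in mouse 774. With the ependymal marker level as a covariate, an alternative added after the data were seen, 2 genes passed. The part of these cells in the list medians was not tested.

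**Figure D5:**
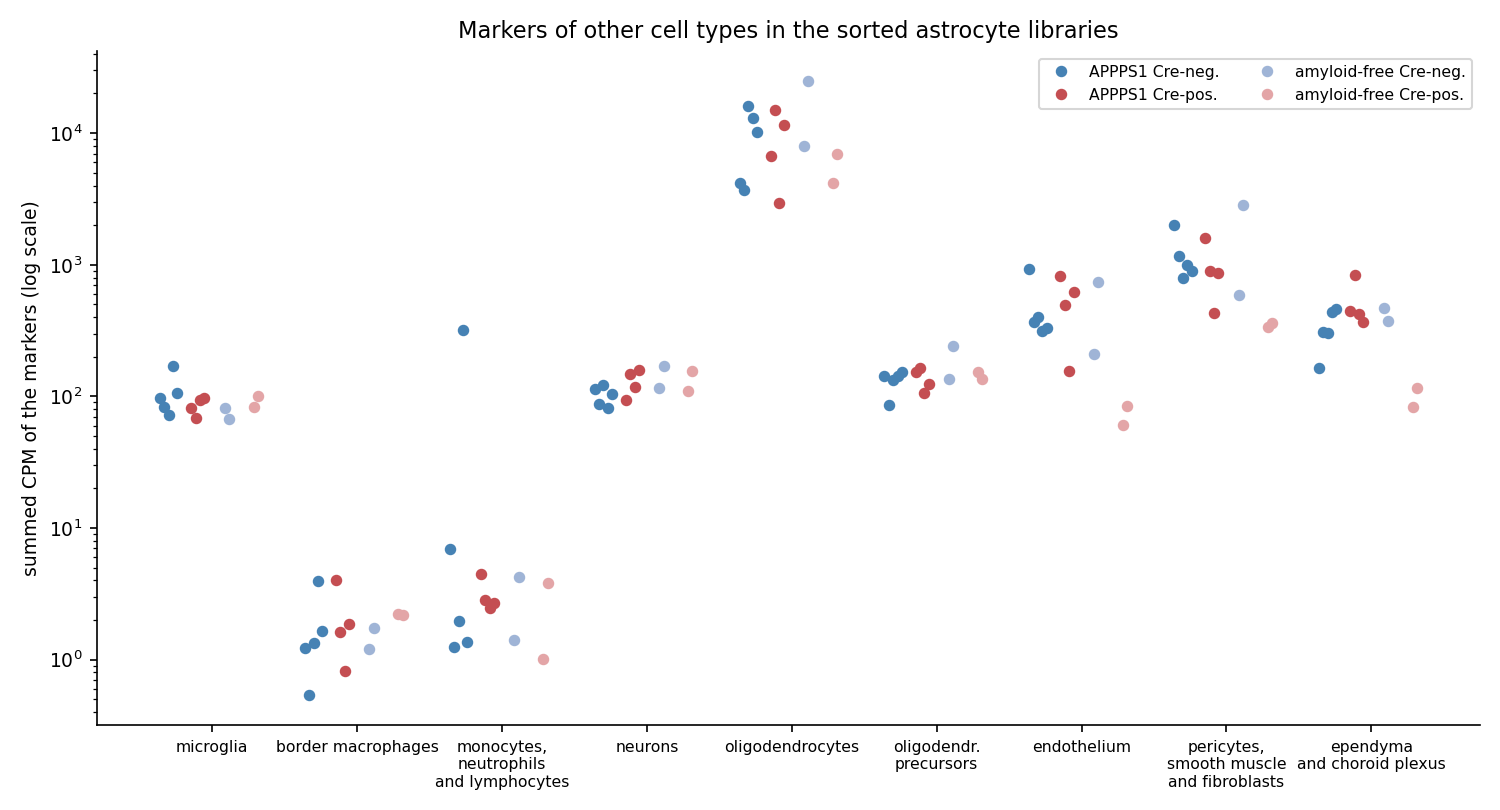
Summed CPM of the markers of other cell types in each astrocyte library, on a log axis, with points for single mice by group. The APPPS1 groups overlap for each marker list, while the Cre-positive amyloid-free mice are lowest in endothelial, ependymal and pericyte markers. In oligodendrocyte markers they are below the Cre-negative amyloid-free mice and within the APPPS1 ranges.

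The Cre effect in amyloid-free astrocytes rested on 2 mice against 2, and 41 of 20052 genes passed (0.204%), 9 higher and 32 lower (edgeR quasi-likelihood test with Benjamini-Hochberg adjustment). Zfp868 was among those that rose. Marker levels differed between these groups: endothelial markers summed to 60.9 to 84.0 CPM with Cre and 211 to 739 CPM without, and ependymal markers to 83.1 to 116 and 374 to 466 CPM. With the ependymal marker level as a covariate 0 genes passed by edgeR, with 1573 at an unadjusted p under 0.05, and 0 passed without mouse 22, 26 or 759. The test of the difference, APPPS1 minus amyloid-free, passed for 31 genes, 28 of them with a more positive change in APPPS1 mice, and also for 0 with that covariate (1225 at an unadjusted p under 0.05). In 31 of the 31 the amyloid-free change was larger in size than the APPPS1 change. Tm4sf1 had 16.6 CPM with Cre and 114 without there, and 106 against 75.0 CPM in APPPS1 mice (difference 3.23, edgeR adjusted p = 0.00807). Disp3, of the patched and dispatched family, had 121 against 58.1 CPM in amyloid-free and 59.7 against 86.0 CPM in APPPS1 astrocytes (difference -1.62, edgeR adjusted p = 0.0407). Without each of the 4 amyloid-free mice in turn, Tm4sf1 passed only without mouse 465 and Disp3 in none (edgeR adjusted p = 0.0655 to 0.263).

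Between astrocytes and microglia of the APPPS1 mice, the Cre effect differed for 1 of 21612 genes tested (0.00463%), Tmie, a gene for a transmembrane protein of the inner ear. In astrocytes Tmie had 11.6 ± 2.74 CPM with Cre and 10.6 ± 1.38 CPM without. In microglia it had 0 counts in all 4 Cre-positive libraries and 29 counts in the 5 Cre-negative ones, so the call rests on a few counts in microglia and not on the astrocyte libraries. Both sorts came from the same mice, and with the mouse as a replicate block 0 genes passed by edgeR, with 719 at an unadjusted p under 0.05.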

How the data were processed

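RNA of sorted astrocytes and microglia from 14 mice was sequenced as 28 libraries made with SMARTer kits, per the labels. The authors deposited 1 table of raw counts per gene, over mouse and human genes. Per the submitters' processing notes, reads passed through bcl2fastq, STAR and featureCounts (Subread), and the builds named are GRCm38 and GRCh38. The strand setting and the treatment of reads shared between genes are not given in the sources used here. Groups came from the sample labels. The 95966 rows held 40481 mouse genes and 55093 human genes, each counted once.

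Mouse gene counts of 13 astrocyte libraries were fitted in R 4.3.3 with edgeR 4.0.16, using its default filter by group, TMM scaling, 1 term per genotype group and quasi-likelihood F tests. Benjamini-Hochberg adjustment covered every tested gene, with a call under an adjusted p of 0.05. Comparisons with microglia used 1 fit of 26 libraries. Levels are CPM of the library's mouse gene counts. Target genes were compared by exact two-sided permutation tests over 126 regroupings. Alternatives used DESeq2 1.42.0, its size factors, limma 3.58.1 voom, no low-count filter, the 9 APPPS1 libraries alone, mouse 459 kept as labelled, an ependymal marker covariate, a mouse block, and each mouse left out. The procedure was tested on simulated data.

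The members and the gene lists were chosen with earlier results of these data known. Beside the target and called genes, the text names up to 12 genes per direction of lowest p whose mean log2 CPM reached 3, ribosomal protein genes, pseudogenes and predicted genes aside. It also names up to 4 genes of lowest p per list, the described cholesterol and lipoprotein genes, and called genes of the tests of differences. Other genes named from the lists and the windows around Apoc1 and Zfp868 were chosen after their values were seen. Same-numbered astrocyte and microglia libraries come from the same mouse, per the labels, which is the pairing behind the mouse block. Replicate libraries of each group differed beyond sampling noise, by chi-square values of 36.7 to 172 for every degree of freedom. Single values of 3 members of the cholesterol list are not reported here, and the counts and sums cover all 27.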

Additional observations from a re-analysis of the deposited data

Results flagged for a closer look

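Of 80 sets of 4 or 5 APPPS1 astrocyte libraries examined for a library that stands apart from its group, 5 had one, where chance gives about 1 in 20. Mouse Apoe was at 463.7 CPM in Cre-positive mouse 460 and at 323 to 337 CPM in the other 3. Rhou was at 55.2 CPM in Cre-negative mouse 774 and at 40.7 to 44.5 CPM in the other 4. In the same library the summed markers of monocytes, neutrophils and lymphocytes were at 322 CPM, against 1.26 to 6.99 CPM in the other Cre-negative libraries. Endothelial markers summed to 934 CPM in Cre-negative mouse 439, whose cholesterol synthesis genes were also low, and to 313 to 403 CPM in the rest of its group. Ependymal and choroid plexus markers summed to 836 CPM in Cre-positive mouse 458 and to 365 to 443 CPM in the other 3.

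The Cre effect differed between APPPS1 and amyloid-free astrocytes for 31 genes by edgeR. Those with the lowest p among them had a more positive change in APPPS1 mice: Tm4sf1 by 3.23, Kcnmb1 by 3.62, Ppp1r32 by 3.63, Pcp4l1 by 3.09, Cd24a by 3.82 and Cfap61 by 4.34 on the log2 scale. Kcnmb1 had 2.02 CPM with Cre and 22.6 CPM without in amyloid-free mice, and 19.7 against 17.2 CPM in APPPS1 mice. The 3 genes with a more negative change in APPPS1 mice were Gdpd2 (-1.28), Sned1 (-1.71) and Disp3 (-1.62). The amyloid-free groups held 2 mice each, and their endothelial, ependymal, pericyte and oligodendrocyte marker levels differed in the same libraries.

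The Cre effect differed between astrocytes and microglia for 1 gene, Tmie, with a fitted difference of 5.90 that depends on the prior count, since the microglia of Cre-positive mice had no counts of it.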

How the results depend on the processing

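In APPPS1 astrocytes Zfp868 passed in every alternative run, and Apoc1 in all but the one that kept mouse 459. In amyloid-free astrocytes Zfp868 was lost wherever the count below is 0. For APPPS1 astrocytes the 2 genes became 36 with DESeq2 (16 higher, 20 lower, both edgeR calls among them) and 1 with mouse 459 kept as labelled (Zfp868), and 2 to 4 when each mouse was left out. Without mouse 439 the added genes were 2810407A14Rik and Hmgcs1. DESeq2 called both of these with mouse 439 kept, and Hmgcs1 (DESeq2 adjusted p = 0.00811) was the 1 member of the cholesterol list among the 36. Mau2, Fam13c, Tubb2b, Ddx46, Aacs, Akt2, Plin4 and Fkbp5 were also among the 36. For amyloid-free astrocytes the 41 genes became 140 without the low-count filter, 875 with DESeq2, 2 with limma voom, 0 with mouse 459 kept (744 at an unadjusted p under 0.05) and 0 with the ependymal covariate (1573), and 0 to 141 when each mouse was left out. The 31 genes whose Cre effect differed with amyloid became 103 without the filter, 577 with DESeq2, 0 with voom (1910 at an unadjusted p under 0.05), 0 with mouse 459 kept (930) and 0 with the covariate (1225), and 0 to 92 when each mouse was left out. The 1 gene that differed between astrocytes and microglia became 0 with the mouse as a replicate block (719 at an unadjusted p under 0.05), 77 with DESeq2, and 0 to 2 when each mouse was left out. The ratio for mouse Apoe was 0.801 to 0.914 when each mouse was left out. When single mice were left out, the log2 change of Ebp ran from -0.20 to 0.0086, that of Lbr from -0.29 to 0.013 and that of Scap from -0.12 to 0.032. The causes were not tested. What depth limits was not tested by varying it.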

Other observations

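The mitochondrially encoded mt-Nd3, a subunit gene of respiratory complex I (chrM:9459-9806), split the astrocyte libraries without following the genotype groups. It was at 126 CPM in mouse 469, 108 CPM in mouse 774 and 148 CPM in mouse 779, all APPPS1 Cre-negative, and at 111 CPM in mouse 759, amyloid-free and Cre-negative. The other 9 astrocyte libraries, both genotypes included, had 3.21 to 11.4 CPM. The microglia of the same 4 mice were also higher, at 43.5, 24.2, 61.7 and 38.0 CPM, against 1.95 to 9.83 CPM in the microglia of the other mice. The log2 change between Cre-positive and Cre-negative APPPS1 astrocytes was -3.51 ± 0.93 (edgeR adjusted p = 0.699), and the other 12 mitochondrially encoded genes are part of a list with a median change of 0.06. What the 4 mice share beyond lacking the Cre is not given in the labels.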
